A study of Mus musculus with 12 samples.

Results

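RNA levels of 10 genes of fibroblast growth factor (FGF) signalling were followed through retinoic acid differentiation of mouse embryonic stem cells (mESCs). They comprise the ligands Fgf4, Fgf5, Fgf8 and Fgf15, the receptors Fgfr1 and Fgfr2, and the feedback and target genes Spry2, Spry4, Dusp6 and Etv4. The genes were taken by symbol from a table of RNA-seq read counts for 24495 genes, in which all 10 were found. Of these, 9 had enough reads to be tested, and Fgf8 did not.

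The cells were CCE-Nanog-GFP mESCs, a line with a green fluorescent reporter of Nanog that was sorted for GFP-positive cells before use. One line had been transduced with a lentivirus that carried an shRNA against the lysosomal protease cathepsin L in pLKO.1 (shCTSL, labelled KD) and selected with puromycin. The control line carried a scrambled shRNA (shSC, labelled WT and scr), for which neither the labels nor the methods name the vector. Each line was sequenced undifferentiated on gelatin with LIF (Day 0) and as embryoid bodies grown without LIF and with all-trans retinoic acid for 2 or 4 days (Day 2 and Day 4), and each of the 6 groups had 2 biological replicates. Both lines thus carry the reporter and an shRNA, and a single knockdown line was sequenced. Whether the lines are pools or clones is not stated in the labels or the methods.

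The 12 libraries held 11171111 to 27155553 counted reads. Levels are given below as normalized CPM, which are counts scaled to a common library size, that is by the library total and by a composition factor (TMM), with replicate 1 before replicate 2. A gene is called changed where its adjusted p in the edgeR fit of all 12 libraries was under 0.05 and its change at least 1.5-fold. The targeted gene Ctsl lay at 137 and 147 CPM in shSC and 39.2 and 37.5 CPM in shCTSL at Day 0, at 369 and 391 against 211 and 155 CPM at Day 2, and at 484 and 423 against 257 and 253 CPM at Day 4. It was lower in shCTSL on every day without overlap of the libraries, and the call held at Day 0 and Day 2 but not at Day 4 (adjusted p = 0.0896). The shCTSL Day 2 libraries stood apart from the rest. Over 10103 genes with a mean of at least 10 CPM, the SD of the log2 ratio between their replicates was 0.64, against 0.12 to 0.26 in the other groups, and results that rest on them are also given without them where a fit allows. The ribosomal RNA gene Rn45s held 3.43% of the counted reads in shCTSL Day 2 replicate 1 and 0.55% in replicate 2. Its share in the other groups was 0.17% to 1.43%.

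FGF ligands bind receptor tyrosine kinases at the cell surface and, through adaptors and the small GTPase Ras, activate the kinases MEK and ERK. ERK in turn raises ETS transcription factors such as Etv4 and inhibitors such as the Sprouty proteins and the phosphatase Dusp6, which dampen the same pathway, so that these transcripts are widely used as a readout of it. In mESCs autocrine Fgf4 is known for priming cells to leave the naive state, while Fgf5 is a classical marker of the primed epiblast and Fgf8 and Fgf15 are better known from the gastrulating and patterning embryo.

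Promoter sequences of 5 members (Fgf4, Fgf5, Fgfr2, Spry2 and Dusp6) were taken from the RefSeq table of 32851 promoters used here, each with 250 bases before and 50 after the start. Those of Fgf8, Fgf15, Fgfr1 and Etv4 were not found in it, and that of Spry4 was left out and not examined. The 4 sequences below are shown since Fgf4 and Spry2 fell together by Day 2, Dusp6 fell only after Day 2 and Fgfr2 rose throughout. They are written 5′ to 3′ on the strand of the gene, on GRCm38.p6, and lie at chr7:144861136-144861435 (+ strand) for Fgf4, chr14:105896770-105897069 (- strand) for Spry2, chr10:99262981-99263280 (+ strand) for Dusp6 and chr7:130266759-130267058 (- strand) for Fgfr2. Capitals mark matches to CCGGAA, a core bound by ETS factors, and to AGGTCA, the core of nuclear receptor sites.
Fgf4: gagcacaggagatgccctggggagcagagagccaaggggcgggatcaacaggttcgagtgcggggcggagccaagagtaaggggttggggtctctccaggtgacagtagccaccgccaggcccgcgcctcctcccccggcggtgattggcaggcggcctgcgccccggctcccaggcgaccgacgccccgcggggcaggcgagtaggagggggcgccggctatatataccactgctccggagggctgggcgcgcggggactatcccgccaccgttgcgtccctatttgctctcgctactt
Spry2: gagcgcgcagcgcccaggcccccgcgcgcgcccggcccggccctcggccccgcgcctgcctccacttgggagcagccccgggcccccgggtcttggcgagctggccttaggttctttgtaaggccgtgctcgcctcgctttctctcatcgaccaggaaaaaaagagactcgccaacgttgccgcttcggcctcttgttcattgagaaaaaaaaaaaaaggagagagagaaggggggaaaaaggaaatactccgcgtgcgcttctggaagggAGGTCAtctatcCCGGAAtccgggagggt
Dusp6: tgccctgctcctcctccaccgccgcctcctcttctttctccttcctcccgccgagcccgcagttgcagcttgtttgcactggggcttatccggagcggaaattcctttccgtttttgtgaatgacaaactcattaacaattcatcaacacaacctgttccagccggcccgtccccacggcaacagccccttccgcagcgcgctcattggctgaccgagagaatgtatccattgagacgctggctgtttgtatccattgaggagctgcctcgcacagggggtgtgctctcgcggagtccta
Fgfr2: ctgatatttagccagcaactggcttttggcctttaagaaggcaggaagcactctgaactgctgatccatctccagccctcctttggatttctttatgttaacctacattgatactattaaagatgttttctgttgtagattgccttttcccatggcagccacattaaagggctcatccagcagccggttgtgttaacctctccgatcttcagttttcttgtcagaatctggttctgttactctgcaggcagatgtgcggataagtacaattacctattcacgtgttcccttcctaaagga
Exact matches were sought on both strands. CCGGAA occurred in the Spry2 promoter, 33 bases after the start, and in the Fgf5 promoter, against 14.9% of all promoters of this length. AGGTCA occurred in Spry2 only among the 5, 21 bases after the start and without overlap with the ETS core, against 16.3% of all promoters. The octamer ATTTGCAT, bound by POU factors, occurred in none of the 5 and in 1.74% of all. The Fgf4, Spry2 and Dusp6 promoters held 28, 28 and 19 CpG sites at 69.7%, 62.7% and 57.3% GC, and the Fgfr2 promoter 4 CpG sites at 43.7% GC, where the median over all promoters was 7 sites and 52.7% GC.

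Most of the 10 genes changed by Day 2, some up and some down. In shSC the ligands Fgf4 and Fgf15 and the feedback genes Spry2, Spry4 and Etv4 fell and Fgf5, Fgfr1 and Fgfr2 rose between Day 0 and Day 2, which makes 3 members higher and 5 lower of 9 tested, where 29.3% of all tested genes were called higher and 25.3% lower. Over the 9 the median change was -2.61 on the log2 scale, against 0.02 over all 15532 genes tested. In shCTSL the same 3 rose and the same 5 fell, where 30.9% of genes were called higher and 24.6% lower. Dusp6 was the tested member with no call in this step in either line. Between Day 2 and Day 4 in shSC, 3 members were higher (Fgf5, Fgf15 and Fgfr2) and 4 lower (Fgf4, Fgfr1, Spry4 and Dusp6), against 11.4% and 12.4% of all genes. The same step in shCTSL called 1 higher (Fgfr2) and 4 lower (Fgf4, Fgfr1, Spry4 and Dusp6), against 11.0% and 12.4% of all genes. Over the whole course, Day 4 against Day 0, 3 were higher and 6 lower in shSC, against 32.1% and 28.7% of all genes, and 2 were higher and 6 lower in shCTSL, against 32.3% and 27.6%. The gene without a call in shCTSL was Fgfr1, whose log2 fold change of 0.54 lay under the 1.5-fold limit at an adjusted p of 0.00996. In bulk RNA a gene that falls in every cell and a loss of the cells that express it cannot be told apart.

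**Figure D1:**
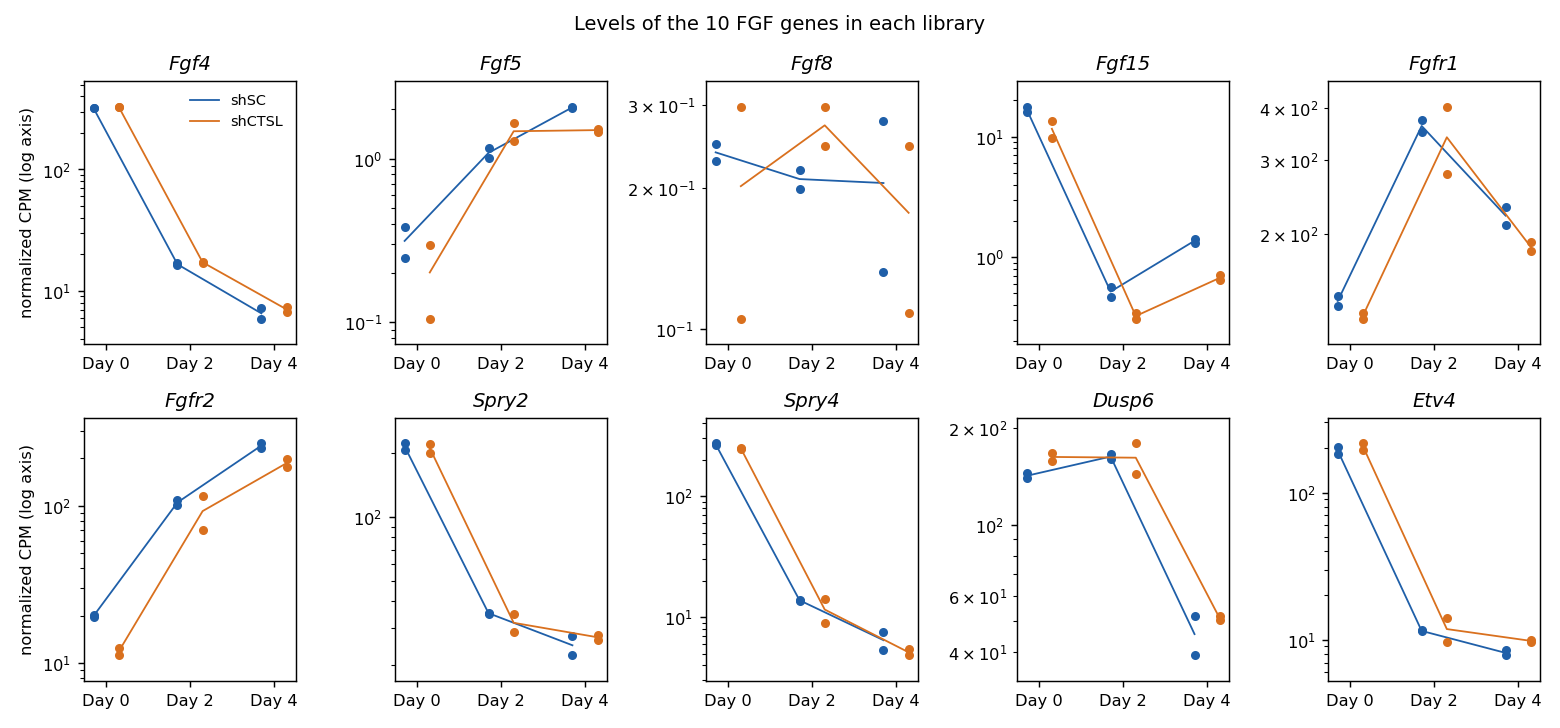
Normalized CPM on a log axis, with its own range for each gene, against the day for each of the 10 genes. Points are single libraries (2 per group) and lines join the group means, blue for shSC and orange for shCTSL. Fgf4 runs from 320 and 319 CPM at Day 0 to 7.16 and 5.89 CPM at Day 4 in shSC, while Fgf8 stays between 0.105 and 0.298 CPM in all libraries.

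Among the ligands, Fgf4 carried by far the most reads at Day 0 and nearly all of this was lost. Fgf4, encoded on chromosome 7 of mm9 at chr7:152047291-152051148 (longest coding transcript, 3 exons), lay at 320 and 319 CPM at Day 0, 16.8 and 16.3 CPM at Day 2 and 7.16 and 5.89 CPM at Day 4 in shSC. The corresponding levels in shCTSL were 326 and 330, 17.4 and 17.0, and 6.66 and 7.43 CPM. The days did not overlap in either line, and the lines overlapped at Day 4. By Day 2 Fgf4 had lost 19.3-fold in shSC (-4.27 on the log2 scale, SE 0.12, adjusted p = 6.27e-09) and by Day 4 a further 2.54-fold (log2 -1.33, SE 0.12, adjusted p = 3.26e-05). In shCTSL these log2 fold changes were -4.25 and -1.29 (SE 0.12 each). Day 4 levels were 2.04% of Day 0 in shSC and 2.15% in shCTSL.

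Fgf15, the mouse counterpart of human FGF19 and known as an endocrine signal from the gut to the liver, turned within the course. Its levels in shSC were 15.9 and 17.8 CPM at Day 0, 0.465 and 0.569 CPM at Day 2 and 1.41 and 1.32 CPM at Day 4. In shCTSL they were 13.4 and 9.80, 0.308 and 0.341, and 0.704 and 0.639 CPM. Day 2 was the lowest day in both lines, without overlap with Day 4. The fall to Day 2 in shSC, 32.5-fold or -5.02 on the log2 scale (SE 0.23, adjusted p = 9.20e-08), was followed by a rise of 2.64-fold or 1.41 (SE 0.28, adjusted p = 0.00382). The rise in shCTSL had a log2 fold change of 1.02 (SE 0.36) and was not called (adjusted p = 0.083). Fgf15 was the only member that was called lower and then higher in shSC, a course shown by 1.15% of all genes tested. These levels rest on 5 to 32 reads per library at Day 2 and Day 4. A gene that overlaps Fgf15, Gm17685, was not among the genes counted, so its reads cannot be set beside them. Fgf15 (chr7:152082437-152086858 on mm9, + strand, 3 exons) lies 31288 bases beyond the end of Fgf4 and, on its other side, 28977 bases from Ccnd1, the gene of the G1 cyclin D1 on the opposite strand. Ccnd1 went from 310 and 311 CPM at Day 0 to 16.5 and 16.2 CPM at Day 2 and 24 and 33.1 CPM at Day 4 in shSC, so that it too was called lower and then higher (log2 fold changes -4.25, SE 0.15, and 0.80, SE 0.14). Fgf4, on the other side of Fgf15, was called lower in both steps.

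Fgf5, on chromosome 5 (chr5:98683203-98706049, 3 exons), rose but remained scarce. In shSC it lay at 0.381 and 0.248 CPM at Day 0, 1.16 and 1.01 CPM at Day 2 and 2.03 and 2.08 CPM at Day 4. The values in shCTSL were 0.298 and 0.105, 1.66 and 1.28, and 1.46 and 1.52 CPM. The days followed each other without overlap in shSC, whereas Day 2 and Day 4 overlapped in shCTSL. The log2 fold change from Day 0 to Day 2 in shSC was 1.80 ± 0.38 (SE, adjusted p = 0.0019) and in shCTSL 2.70 ± 0.43 (adjusted p = 0.000321). From Day 2 to Day 4 it was 0.91 ± 0.26 (adjusted p = 0.022) in shSC and 0.04 ± 0.26 (adjusted p = 0.918) in shCTSL. Day 0 levels rest on 1 to 5 reads per library. The Day 4 call in shSC was lost with DESeq2 (adjusted p = 0.0752) and without any 1 of the 4 libraries compared (shSC Day 2 replicate 1 and 2, 0.0892 and 0.141, and shSC Day 4 replicate 1 and 2, 0.105 and 0.0798).

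Fgf8 was covered by 1 to 7 reads in each of the 12 libraries and was not tested. Its levels were 0.229 and 0.248 CPM at Day 0, 0.199 and 0.219 CPM at Day 2 and 0.133 and 0.277 CPM at Day 4 in shSC, and 0.298 and 0.105, 0.246 and 0.298, and 0.108 and 0.246 CPM in shCTSL. All 12 values lay within 0.105 to 0.298 CPM, and no order of days or lines can be read from so few reads.

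When levels were divided by transcript length (CPM per kb of the longest coding transcript), which allows genes to be compared, the 18 secreted ligands together fell from 171 and 179 at Day 0 to 11.4 and 10.9 at Day 2 and 9.45 and 9.79 at Day 4 in shSC. Fgf4 made up 61.7% and 58.9% of this sum at Day 0, 48.5% and 49.3% at Day 2 and 25.0% and 19.9% at Day 4. Its share thus fell with the sum, and the libraries of different days did not overlap. Fgf17, a ligand of the same subfamily as Fgf8, was next at Day 0 with 26.5% and 28.3%, ahead of Fgf15 with 5.12% and 5.49%. At Day 4 no ligand other than Fgf4 exceeded the 11.6% and 14.4% held by Fgf18 in shSC, and Fgf5 and Fgf15 then held 8.60% and 8.50%, and 8.27% and 7.44%. The shares in shCTSL followed the same order for Fgf4, at 64.9% and 68.0%, 49.7% and 49.2%, and 26.0% and 25.2% on the 3 days.

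**Figure D2:**
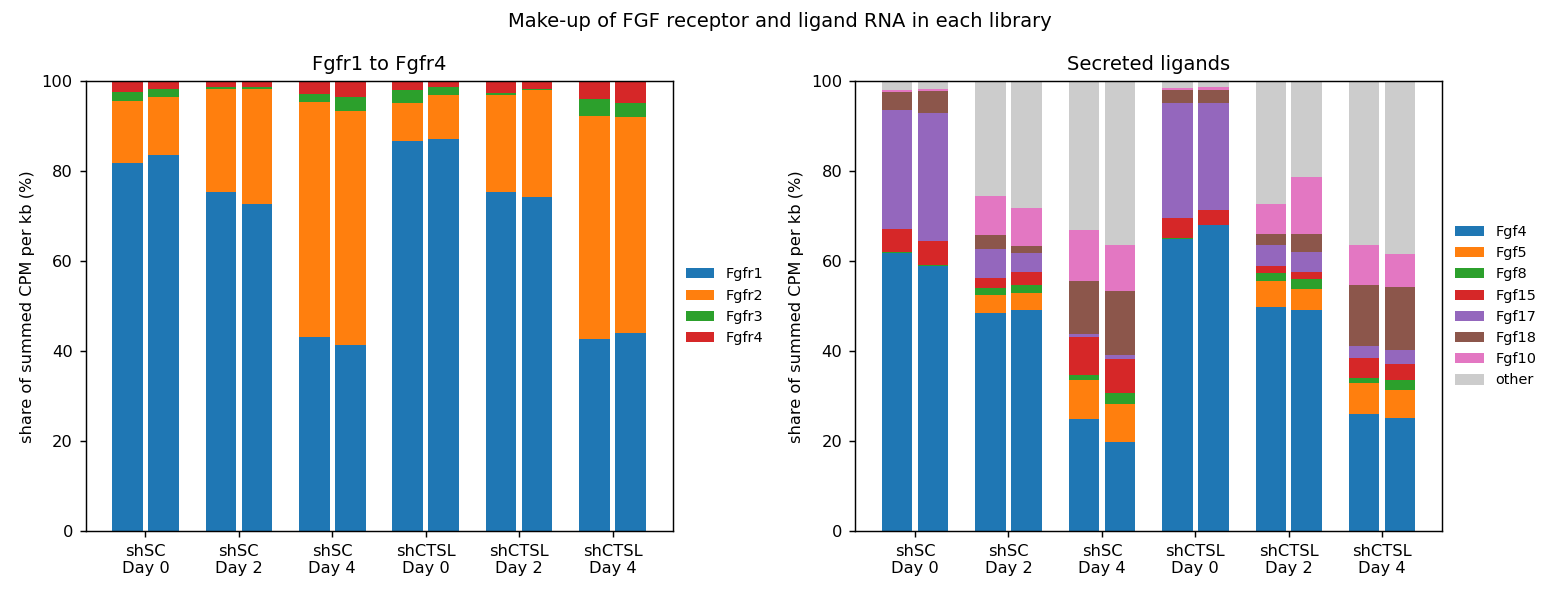
Share of summed CPM per kb, in percent, that each gene holds among the 4 FGF receptors (left) and the 18 secreted ligands (right), 1 bar for each of the 12 libraries, with replicate 1 to the left of replicate 2. Fgfr2 goes from 13.9% and 12.9% at Day 0 to 52.2% and 51.8% at Day 4 in shSC, and Fgf4 from 61.7% and 58.9% to 25.0% and 19.9%.

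Both receptors rose by Day 2, after which they parted. Fgfr1, the main FGF receptor of mESCs (chr8:26629264-26686186, 18 exons), lay at 135 and 142 CPM at Day 0, 375 and 349 CPM at Day 2 and 233 and 210 CPM at Day 4 in shSC. In shCTSL it lay at 130 and 126, 278 and 403, and 191 and 182 CPM. Day 2 was the highest day in both lines, without overlap with Day 0 or Day 4. The log2 rise to Day 2 in shSC, 1.38 ± 0.16 (SE), had an adjusted p of 3.03e-05, and that in shCTSL, 1.41 ± 0.16, one of 2.67e-05. The later change was -0.71 ± 0.15 (adjusted p = 0.00622) in shSC and -0.87 ± 0.15 (adjusted p = 0.00226) in shCTSL. Being called higher and then lower set Fgfr1 apart from the other members in both lines, and 5.27% of all genes tested had this course in shSC. The call of the later fall was lost in shSC without shSC Day 2 replicate 1 or shSC Day 4 replicate 2 (adjusted p = 0.0507 and 0.0551) and in shCTSL without shCTSL Day 2 replicate 2, where the log2 fold change of -0.58 lay under 1.5-fold, or with only the libraries compared (-0.88, adjusted p = 0.0949). A predicted gene that overlaps Fgfr1, Gm16159, had 0 to 5 reads per library.

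Fgfr2, a receptor known from epithelia and the primitive endoderm, rose in both steps. Its transcript lies on the minus strand at chr7:137306026-137409759 with 17 exons. Levels in shSC were 20.4 and 19.5 CPM at Day 0, 101 and 109 CPM at Day 2 and 250 and 233 CPM at Day 4. In shCTSL they were 11.2 and 12.5, 70.5 and 115, and 197 and 176 CPM. The days did not overlap in either line. By Day 2 Fgfr2 had risen 5.27-fold in shSC (log2 2.40, SE 0.20, adjusted p = 4.03e-06) and by Day 4 a further 2.3-fold (log2 1.20, SE 0.19, adjusted p = 0.00104), and in shCTSL these folds were 7.80 (log2 2.97, SE 0.21) and 2.02 (log2 1.01, SE 0.19, adjusted p = 0.003). With only the libraries compared in the fit, the Day 4 against Day 2 call in shCTSL was lost (adjusted p = 0.102).

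The ratio of the receptors changed from one dominated by Fgfr1 to near parity. Per kb of transcript, Fgfr1 was 5.90 and 6.47 times Fgfr2 at Day 0, 3.29 and 2.85 times at Day 2 and 0.826 and 0.802 times at Day 4 in shSC. In shCTSL the ratio was 10.3 and 8.92, 3.5 and 3.12, and 0.860 and 0.918. Both lines therefore had slightly more Fgfr2 than Fgfr1 per kb at Day 4. The summed level of the 4 receptors rose from 33.2 and 34.1 to 99.8 and 96.3 at Day 2 and 108 and 102 CPM per kb at Day 4 in shSC, with Fgfr3 and Fgfr4 together at no more than 4.39% of it at Day 0 and 6.76% at Day 4.

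Spry2, Spry4 and Etv4 made most of their fall by Day 2, and Spry4 fell again by Day 4. Spry4, a Sprouty inhibitor of receptor tyrosine kinase signalling, lay at 263 and 274 CPM at Day 0, 13.7 and 13.8 CPM at Day 2 and 7.56 and 5.34 CPM at Day 4 in shSC. In shCTSL it lay at 245 and 252, 8.92 and 14.2, and 5.41 and 4.82 CPM. Day 0 stood far above the later days in both lines, with no overlap between any pair of days. The log2 fold change of the first step was -4.28 ± 0.22 (SE) for shSC (adjusted p = 1.56e-07), beside -4.41 ± 0.22 for shCTSL (adjusted p = 1.48e-07). The second added -1.08 ± 0.21 (adjusted p = 0.00371) and -1.19 ± 0.22 (adjusted p = 0.00278). The latter was not called with limma-voom and quality weights (adjusted p = 0.0515) or with only the libraries compared (0.0801).

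Etv4 (chr11:101631061-101646685, 13 exons) encodes an ETS activator, and its transcript is used as a readout of ERK, whose activity was not measured here. In shSC it lay at 183 and 203, 11.6 and 11.4, and 7.82 and 8.46 CPM at Day 0, Day 2 and Day 4. In shCTSL it lay at 216 and 196, 14.0 and 9.66, and 9.96 and 9.69 CPM. Day 2 and Day 4 were separate in shSC and overlapped in shCTSL. Etv4 changed by -4.07 ± 0.17 (SE, log2 scale) in the first step in shSC, beside -4.13 ± 0.17 for shCTSL (adjusted p = 5.16e-08 and 4.80e-08). The second, -0.50 (SE 0.17) and -0.26 (SE 0.17), was not called in either line, although its adjusted p in shSC was 0.0447 with a change under 1.5-fold.

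Spry2 (chr14:106291166-106296036, minus strand, 2 exons) kept more of its level. It lay at 207 and 222 CPM at Day 0, 35.3 and 35.1 CPM at Day 2 and 27.4 and 22.3 CPM at Day 4 in shSC, and at 221 and 200, 28.7 and 34.7, and 26.4 and 27.8 CPM in shCTSL. Its Day 2 level was 16.4% of Day 0 in shSC and 15.1% in shCTSL, where Spry4 and Etv4 kept 5.13% and 5.96% in shSC. The log2 fold change of this step was -2.61 ± 0.14 (SE) for shSC (adjusted p = 2.17e-07), beside -2.73 ± 0.14 in shCTSL (adjusted p = 1.77e-07). Of the whole log2 change from Day 0 to Day 4 in shSC, 84.0% for Spry2, 79.9% for Spry4 and 89.1% for Etv4 had taken place by Day 2, beside 76.2% for Fgf4. The Day 4 against Day 2 change of Spry2 in shSC was under 1.5-fold (log2 -0.50, SE 0.14) and passed the limit without shSC Day 4 replicate 1 (-0.66).

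Dusp6 did not move with these 3 genes. Dusp6, the cytoplasmic phosphatase of ERK (chr10:98725865-98730122, 3 exons), lay at 140 and 145 CPM at Day 0, 160 and 166 CPM at Day 2 and 51.9 and 39.0 CPM at Day 4 in shSC. In shCTSL it lay at 167 and 159, 144 and 180, and 51.7 and 50.1 CPM. Day 0 and Day 2 overlapped in shCTSL and Day 4 was the lowest day in both lines. The log2 fold change to Day 2 was 0.20 in shSC (95% interval -0.12 to 0.52, adjusted p = 0.251) and -0.01 in shCTSL (-0.33 to 0.32, adjusted p = 0.967). From Day 2 to Day 4 it fell by 1.84 (SE 0.15, adjusted p = 2.07e-05) and 1.67 (SE 0.15, adjusted p = 3.82e-05), to 32.0% and 31.3% of the Day 0 level. Its Day 2 level was 115% of Day 0 in shSC, where that of Fgf4 was 5.18%.

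**Figure D3:**
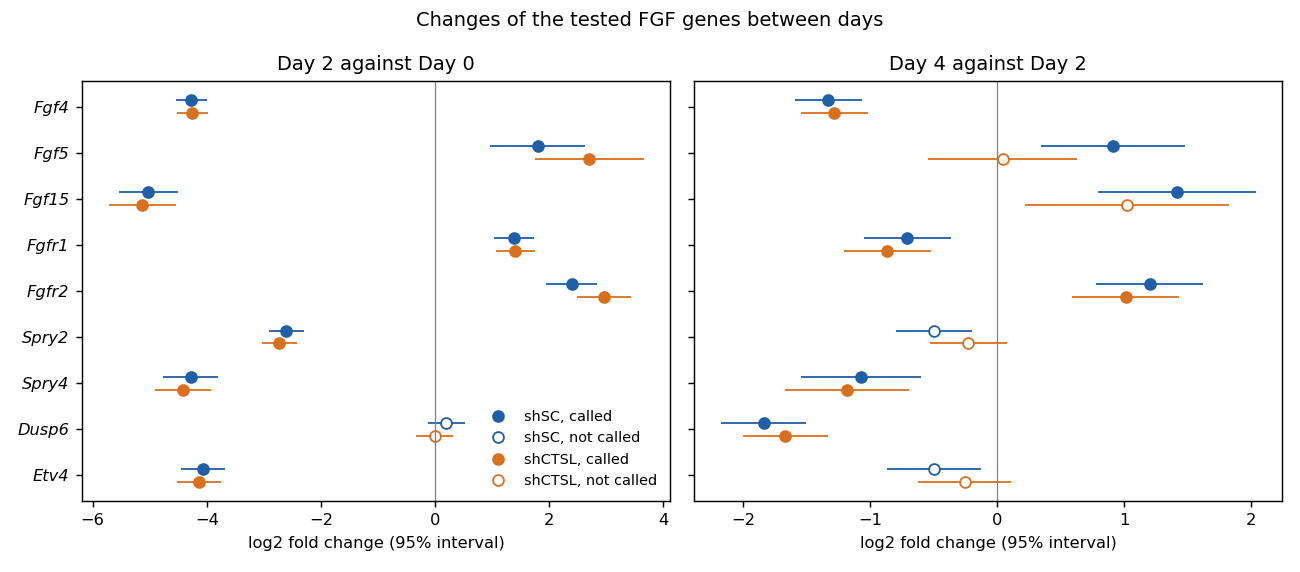
Log2 fold change of the 9 tested members (x axis) from Day 0 to Day 2 (left) and from Day 2 to Day 4 (right), blue for shSC and orange for shCTSL. Bars are 95% intervals from the fit, filled points are called and open points are not. Dusp6 sits near 0 in the first step, at 0.20 and -0.01, and at -1.84 and -1.67 in the second.

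The courses of the members over the 12 libraries are described by Pearson's r of log2 CPM, in which the libraries of a group share their day and line. Fgf4, Spry2, Spry4 and Etv4 had r of 0.98 to 0.99 with each other, and Fgfr2 had r of -0.96 to -0.98 with the 4 of them. Dusp6 had r of 0.51 to 0.64 with these 4. Among all tested genes, the 3 most like Fgf4 were Mcm10, a replication factor (r = 0.998), Inhbb, a subunit of activin and inhibin (r = 0.998), and Pelp1 (r = 0.997), all over 12 libraries. For Fgf15 they were D10Wsu102e, Taf1a and Cluh (r = 0.993, 0.993 and 0.992) and for Fgf5 they were Zfp768, Evl and Hdhd3 (r = 0.987, 0.986 and 0.984). In all 9 of these genes the Day 0 libraries of each line lay apart from those of the later days. The genes were picked for their likeness over the same 12 libraries, so this separation is not independent of the choice.

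The question of the knockdown is whether these levels differed between the lines on the same day. In the edgeR fit no member was called at Day 0, Day 2 or Day 4, where 0.0386%, 0.0644% and 0.0129% of all genes were called. At an unadjusted p under 0.05 there were 2 members at Day 0 (Fgfr2 and Fgf15), 0 at Day 2 and 1 at Day 4 (Fgf15). DESeq2 called 0 on each day, and limma-voom with quality weights called 1 at Day 0 (Fgfr2) and 0 on the others. The differences of Fgf4 had the narrowest intervals, at 0.04 (-0.20 to 0.27) at Day 0, 0.05 (-0.19 to 0.30) at Day 2 and 0.10 (-0.18 to 0.38) at Day 4 on the log2 scale. With 2 libraries a side, larger differences remain within the intervals of the scarcer genes, as for Fgf5 at Day 0 (-0.49, interval -1.81 to 0.82).

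Fgfr2 was lower in shCTSL at Day 0, with 11.2 and 12.5 CPM against 20.4 and 19.5 CPM, and the libraries did not overlap. Its mean was 59.5% of that in shSC, or -0.75 on the log2 scale (interval -1.22 to -0.28), at an adjusted p of 0.396. With only the 4 Day 0 libraries in the fit the value was -0.74 and the adjusted p 0.00146, and without both shCTSL Day 2 libraries they were -0.74 and 0.00178. Leaving out either shCTSL Day 2 library also gave a call (adjusted p = 0.00152 without replicate 1 and 0.00156 without replicate 2), as did limma-voom with quality weights (0.00748). Over these fits the log2 difference lay between -0.74 and -0.76. At Day 4 the libraries again did not overlap, at 77.3% of shSC (-0.37, interval -0.79 to 0.04, adjusted p = 0.443), and at Day 2 they did (-0.18, interval -0.60 to 0.24).

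Fgf15 was lower in shCTSL on all 3 days with no overlap of the libraries, at 69.0%, 62.7% and 49.2% of the shSC mean at Day 0, Day 2 and Day 4. The log2 differences were -0.53 (interval -0.92 to -0.14, adjusted p = 0.512), -0.64 (-1.44 to 0.17, adjusted p = 0.398) and -1.03 (-1.66 to -0.40, adjusted p = 0.252). At Day 4 this compares 13 and 13 reads in shCTSL with 32 and 19 in shSC. Without both shCTSL Day 2 libraries the Day 4 difference was -1.02 with an adjusted p of 0.0353, and it was called as well without replicate 1 (0.0353) or replicate 2 (0.0322) of that group. At Day 2 a single other change of call was seen, for Spry4, which was called lower in shCTSL without shCTSL Day 2 replicate 2 (-0.63, adjusted p = 0.00243) and not in the full fit (-0.24, adjusted p = 0.475).

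**Figure D4:**
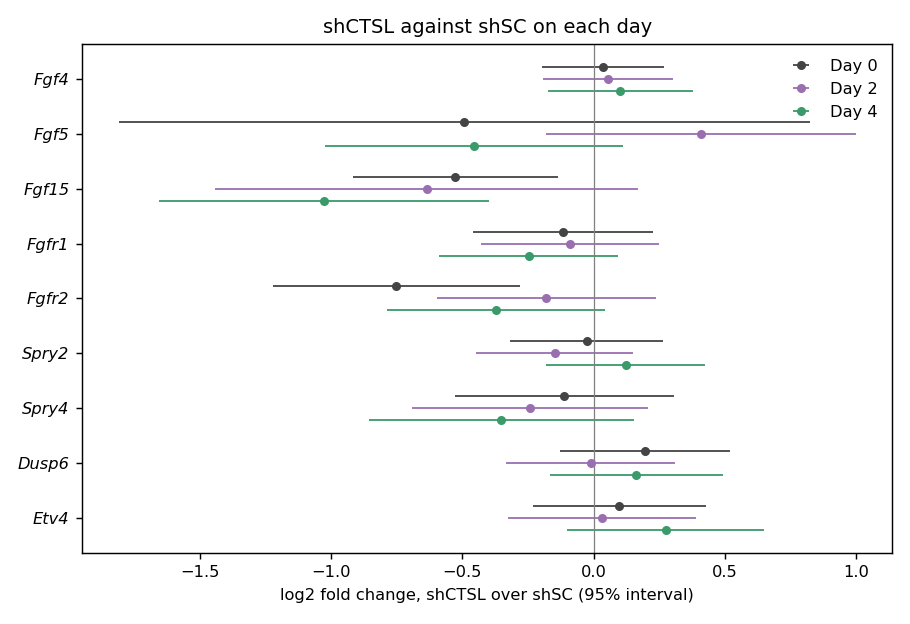
Log2 fold change of shCTSL over shSC (x axis) for the 9 tested members on Day 0, Day 2 and Day 4, with 95% intervals from the fit of all 12 libraries. The intervals of Fgfr2 at Day 0 (-1.22 to -0.28) and of Fgf15 at Day 0 and Day 4 lie below 0, and no difference passed the adjusted threshold.

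Whether the changes between days differed between the lines was tested by the interaction of line and day. No member was called for Day 2 against Day 0, Day 4 against Day 2 or Day 4 against Day 0, where 0%, 0% and 0.00644% of all genes were. DESeq2 and limma-voom called 0 as well, and 1 member, Fgf5 for Day 4 against Day 2, had an unadjusted p under 0.05. The rise of Fgf5 from Day 2 to Day 4 was smaller in shCTSL by 0.87 on the log2 scale (difference -0.87, interval -1.68 to -0.05, unadjusted p = 0.0399 and no call after adjustment). The rise of Fgfr2 to Day 2 was larger in shCTSL by 0.57 (interval -0.06 to 1.20, adjusted p = 0.475). It was called without shCTSL Day 2 replicate 1 (0.88, adjusted p = 0.00839). For Fgf15 the interactions ranged from -0.50 to -0.11.

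The wider FGF/ERK list held 55 further genes, of which 49 were tested. From Day 0 to Day 4 in shSC 18 were called higher, 10 lower and 21 neither, and in shCTSL these counts were 17, 9 and 23, beside the 32.1% higher and 28.7% lower of all genes in shSC and the 32.3% and 27.6% in shCTSL. Of the 18 other ligands 13 were tested, and 6 were higher and 4 lower in shSC. Fgf17 had the largest change of them, from 76.5 and 85.4 CPM at Day 0 to 1.23 and 0.788 CPM at Day 2 and 0.133 and 0.139 CPM at Day 4 in shSC (log2 -9.16, SE 0.26, adjusted p = 3.99e-09, with 3 and 2 reads at Day 4). It fell in shCTSL too (log2 -7.25, SE 0.22), to 0.379 and 0.492 CPM. Fgf14, an intracellular relative that is not secreted, went from 1 and 1 reads to 85 and 68 reads, and Fgf9 from 2 and 0 reads to 38 and 26 reads, both called. Fgf18 was called lower at Day 2 and higher again at Day 4 in both lines, with log2 fold changes of -4.81 (SE 0.32) and 2.13 (SE 0.38) in shSC.

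The other receptors and co-receptors were also higher at Day 4. All 4 that were tested (Fgfr3, Fgfr4, Fgfrl1 and Klb) had risen by Day 4 in both lines, and Kl was not tested. Fgfr3, a further receptor tyrosine kinase of the family, had not risen by Day 2, where it lay -0.59 from Day 0 on the log2 scale in shSC (SE 0.32, adjusted p = 0.131). It was called lower on that day in shCTSL (-1.06, SE 0.35, adjusted p = 0.0212). It rose between Day 2 and Day 4 in both lines (log2 2.62 and 3.08). Klb, the beta-Klotho co-receptor on which Fgf15 acts in the liver, went from 0 and 0.372 CPM at Day 0 to 11.5 and 10.9 CPM at Day 2 and 20.2 and 15.9 CPM at Day 4 in shSC (log2 6.42, SE 0.48, adjusted p = 1.18e-06). Fgfrl1, a receptor without a kinase domain, rose from 7.40 and 7.74 to 46.1 and 51.0 CPM (log2 2.68, SE 0.12). Fgfr4, the receptor that pairs with Klb, rose from 2.74 and 1.98 to 10.3 and 12.1 CPM (log2 2.25, SE 0.22). Of 17 adaptors and kinases between receptor and ERK, 3 were higher, 3 lower and 11 not called at Day 4 in shSC, where 32.1% of all genes were higher and 28.7% lower. Sos2, a Ras exchange factor, was higher at Day 4 (log2 2.52, SE 0.19), and the docking protein Gab1 (log2 -1.29, SE 0.12) and the MEK gene Map2k1 (log2 -0.82, SE 0.11) were lower.

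The other feedback and target genes moved in both directions. Of the 15, all tested, 8 had risen and 1 had fallen by Day 2 in shSC, where 29.3% of all genes were called higher and 25.3% lower. By Day 4 the counts were 5 higher and 3 lower, against 32.1% and 28.7% of all genes. Flrt3, a membrane protein that binds FGF receptors, rose from 9.30 and 9.23 CPM at Day 0 to 106 and 108 CPM at Day 2 and 230 and 254 CPM at Day 4 (log2 4.70, SE 0.12, adjusted p = 2.80e-09), and Spry3 rose from 0.152 and 0.248 CPM at Day 0 to 8.26 and 7.70 CPM at Day 4 (log2 5.24, SE 0.40). Within the Sprouty family Spry1 and Spry3 were thus higher and Spry2 and Spry4 lower at Day 4, in both lines. Etv5, a relative of Etv4 in the PEA3 family, fell more slowly, from 402 and 406 CPM to 174 and 181 CPM at Day 2 and 31.8 and 31.8 CPM at Day 4 (log2 over the whole course -3.67, SE 0.19, adjusted p = 9.31e-08).

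A set of 4 inhibitors of the pathway, singled out after their values were seen, peaked at Day 2 in shSC. Dusp4, Dusp5, Dusp9 and Il17rd were called higher at Day 2 and lower again at Day 4, which makes 4 of 19 feedback and target genes with the 4 members included, where 5.27% of all genes had this course. Dusp9, a phosphatase of ERK, lay at 186 and 199, 465 and 384, and 208 and 200 CPM on the 3 days in shSC. Il17rd, also named Sef, lay at 77.1 and 73.1, 196 and 196, and 68.2 and 58.3 CPM. Day 2 lay above the other days for each of these genes. In shCTSL the course was called for Dusp4, Dusp9 and Il17rd, and not for Dusp5, whose step to Day 4 was -0.21. The shCTSL Day 2 replicates differed for Il17rd, at 79.1 and 191 CPM, and for Dusp4, at 28.9 and 57.6 CPM. No fit of this course in shCTSL can leave both replicates out.

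**Figure D5:**
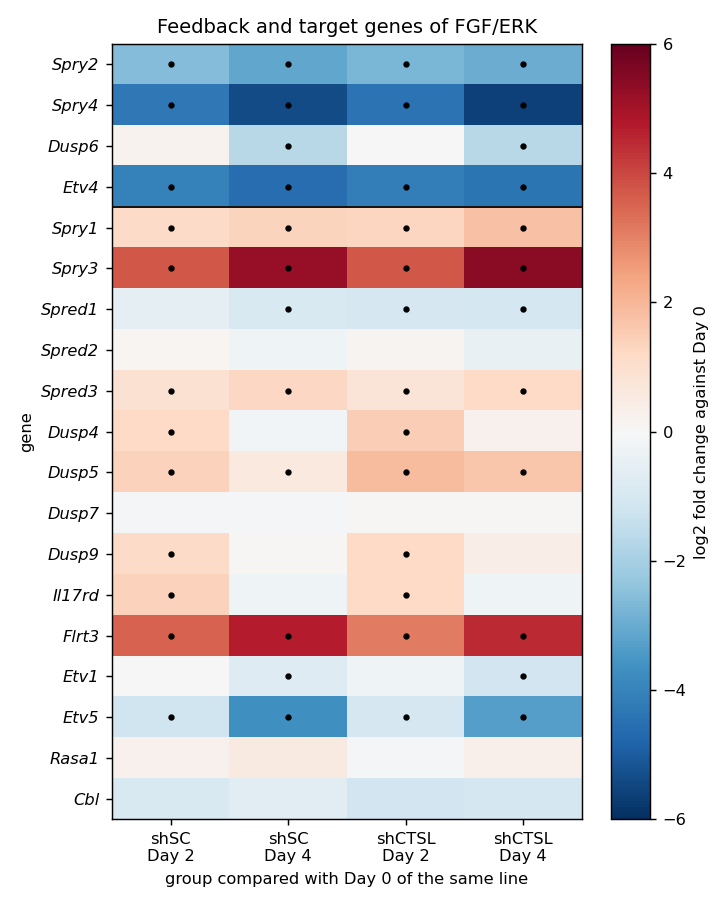
Log2 fold change against Day 0 of the same line (colour scale) for the 4 member feedback and target genes (above the line) and 15 others (below it), in shSC and shCTSL at Day 2 and Day 4. Dots mark called changes. Spry2, Spry4 and Etv4 are blue at every point, Dusp6 turns blue at Day 4, and Spry3 and Flrt3 are red throughout, at 5.24 and 4.70 at Day 4 in shSC.

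Markers of the cell types that embryoid bodies can hold changed on the same days. The summed level of 7 markers of undifferentiated mESCs lay between 5295 and 5812 CPM at Day 0, between 733 and 858 CPM at Day 2 and between 259 and 337 CPM at Day 4 over the 4 libraries of a day. For 3 epiblast markers (Dnmt3b, Otx2 and Pou3f1) these ranges were 282 to 364, 66.0 to 80.6 and 30.2 to 42.1 CPM. For 5 endoderm markers they were 5.27 to 6.43, 154 to 171 and 307 to 360 CPM, for 5 mesoderm markers 7.62 to 10.1, 42.7 to 116 and 103 to 132 CPM, and for 5 fibroblast markers 6.95 to 10.8, 12.7 to 18.0 and 388 to 414 CPM. The stem cell and epiblast sums were thus lower from day to day and the endoderm and fibroblast sums higher, without overlap, and the mesoderm sum was higher on the later days than at Day 0. The epiblast sum was mostly Dnmt3b, and within it Pou3f1, at 18.5 and 20.8 CPM at Day 0, 1.63 and 2.10 CPM at Day 2 and 6.89 and 5.20 CPM at Day 4 in shSC, was called higher from Day 2 to Day 4 (log2 1.72, SE 0.21, adjusted p = 0.000236). Against Day 0, Thy1 of the fibroblast list was called lower at Day 2 and Day 4 in both lines, and the other 4 higher. Mixl1 of the mesoderm list was called lower in the same comparisons, where 2 of that list were higher at Day 2 and 3 at Day 4. T, also of the mesoderm list, was called lower at Day 4 in shCTSL. The sum of 5 neural markers was 214 to 245, 270 to 392 and 156 to 186 CPM. From Day 0 to Day 4, Tubb3 of this list was called lower in both lines. Pax6, Sox1 and Hoxb1 were called higher in both lines, and Nes in shCTSL only, so the lower sum at Day 4 does not describe most of the list. None of these 30 markers was at 0 in all libraries of any day. The fall of Fgf4, Spry2, Spry4 and Etv4 thus ran beside lower sums of the mESC and epiblast markers and the rise of Fgfr2 beside higher sums of the endoderm, mesoderm and fibroblast markers, and the part of the cell makeup in either was not tested.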

How the data were processed

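The deposited values are whole-number read counts per gene, which the authors made from poly(A) RNA by alignment to mm9 with STAR 2.3.0e, removal of alignments of mapping quality under 10 with SAMtools 0.1.19 and counting with featureCounts 1.6.2. The sources used here do not give the strand setting of the counting. The authors themselves tested expression with DESeq2 1.16.1.

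The counts of all 12 libraries (11171111 to 27155553 reads) were fitted together in R 4.3.3 with edgeR 4.0.16 by its quasi-likelihood test, with TMM scaling, a mean per group and the 15532 genes kept by filterByExpr at a minimum count of 10. Adjustment was by Benjamini-Hochberg over all of these genes. The fit was tested on simulated data. Standard errors were derived from the fit, as the size of the log2 fold change over the square root of the F statistic. The 95% intervals use these standard errors and the t distribution. The replicate SDs and the correlations of deviations from group means used the log2 CPM of edgeR with a prior count of 0.5. Pearson's r between genes used log2 of the CPM with 0.5 added. Lengths and positions are those of the longest coding transcript in GENCODE M1 (mm9), and promoters are from RefSeq (GRCm38.p6). Alternatives were RLE scaling, DESeq2 1.42.0, limma-voom (limma 3.58.1) with quality weights, no count filter, at least 1 CPM in 2 libraries, a fit of the libraries compared, no fold limit, a log2 limit of 1.5, a replicate block and each library left out. Leaving out both shCTSL Day 2 libraries was chosen after the data were seen.

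All 10 members and Ctsl are named. From each class of the wider list the 3 genes with the largest called change from Day 0 to Day 4 in shSC are named. Others were named after their values were seen. They are Fgf18, Ccnd1, Fgfr3, Kl, Spry1, Dusp4, Dusp5, Dusp9, Il17rd, Pou3f1, Dnmt3b and Otx2. They also include Thy1, Mixl1, T, Pax6, Sox1, Hoxb1, Nes, Tubb3, Rn45s, Gm16159 and Gm17685. For each tested member ligand (Fgf4, Fgf5 and Fgf15), the 3 genes most like it are named. The members and lists were chosen with earlier results of these data known. Figures were drawn with matplotlib 3.10.9.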

Additional observations from a re-analysis of the deposited data

How the results depend on the processing

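The counts of called members from Day 0 to Day 2 and from Day 0 to Day 4 stayed within 1.5 times in both lines under every alternative run. From Day 2 to Day 4 in shSC, 7 members were called, 1 with a log2 limit of 1.5 and 5 to 7 with each library left out. In shCTSL 5 were called, 2 with only the libraries compared, 1 with a log2 limit of 1.5 and 4 to 5 with each library left out. Between the lines 0 were called on each day. At Day 0 this became 1 (Fgfr2) with limma-voom, with only the libraries compared and without both shCTSL Day 2 libraries, and at Day 4 it became 1 (Fgf15) without both. Leaving out each library gave 0 to 1 on every day and for the interaction of Day 2 against Day 0. The cause was not tested.

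Log2 differences near 0 changed sign. Dusp6 from Day 0 to Day 2 in shCTSL was 0.024 with no count filter and 0.0039 with only the libraries compared. Etv4 between the lines at Day 2 was -0.0022 with DESeq2 and -0.019 with limma-voom. With each library left out, the lowest and highest log2 values in shCTSL were -0.17 and 0.18 for Dusp6 (Day 2 against Day 0), -0.16 and 0.20 for Fgf5 and -0.51 and 0.00029 for Etv4 (Day 4 against Day 2). Between the lines they were -0.11 and 0.042 for Spry2 at Day 0. At Day 2 they were -0.39 and 0.16 for Fgfr1, -0.58 and 0.13 for Fgfr2, -0.63 and 0.050 for Spry4, -0.18 and 0.15 for Dusp6, and -0.24 and 0.28 for Etv4. At Day 4 they were -0.026 and 0.25 for Fgf4, -0.021 and 0.28 for Spry2, and -0.031 and 0.38 for Dusp6. For the interactions they were -0.31 and 0.15 for Fgf15 (Day 2 against Day 0), -0.50 and 0.20 for Fgfr2 (Day 4 against Day 2), and -0.41 and 1.04 for Fgf5 (Day 4 against Day 0). Of 1946 alternative values for single members, 1882 kept direction and call, 25 lost the call, 14 gained it and 25 changed sign. The replicate numbers did not pair the samples (correlations of deviations from the group means of -0.30 to 0.10), and with a replicate block the counts remained 8, 7 and 9 in shSC (Day 2 against Day 0, Day 4 against Day 2, Day 4 against Day 0), 8, 5 and 8 in shCTSL, and 0 between the lines and for the interactions. Fgf8, with 1 to 7 reads per library, and the 1 to 5 reads of Fgf5 at Day 0 are limited by depth.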
